A study of Mus musculus with 3 samples.

Results

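The genes described here form the core of the cyclooxygenase and prostaglandin pathway, and 10 were chosen by symbol for their role in it. They are the phospholipase Pla2g4a, the cyclooxygenases Ptgs1 and Ptgs2, the prostaglandin E synthases Ptges, Ptges2 and Ptges3, the prostacyclin synthase Ptgis, the receptors Ptger2 and Ptger4, and the breakdown enzyme Hpgd. Of these 10 genes, 8 were listed among the 15287 genes of the deposited table. Ptger2 and Hpgd were not listed, and no value is given for them.

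The cells were MC3T3-E1, a wild-type preosteoblast line derived from mouse calvaria. RNA-seq was performed on 3 libraries, with 1 library per condition. Untreated cells gave the CTL library. Titanium particles at 10 μg/cm2 for 24 h gave the Ti library, and the same particles for 24 h with 5 μM selenomethionine gave the Ti+Se-Met library. Selenomethionine is methionine with selenium in place of its sulfur. Since each condition had 1 library, differences have no replicate check, no test was run and no p-value is given. Ti against CTL is called the particle comparison, Ti+Se-Met against Ti the selenomethionine comparison, and Ti+Se-Met against CTL the combined comparison. In such bulk RNA, fewer cells that express a gene and less of its RNA per cell cannot be told apart.

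Prostaglandins are short-lived lipid signals made from arachidonic acid. A phospholipase frees the fatty acid from membranes, a cyclooxygenase turns it into prostaglandin H2, and terminal synthases turn that into prostaglandin E2, prostacyclin and related products. In bone, osteoblasts are a main source of prostaglandin E2, which acts on bone formation and on resorption. COX-1, the product of Ptgs1, is present in most resting cells, whereas COX-2, the product of Ptgs2, is made upon stimulation by cytokines, load or growth factors. The study used COX2 as a readout of inflammation. The paper reports that titanium particles raised COX2 in MC3T3-E1 cells and that selenomethionine lowered it. Its assays there were western blot, immunofluorescence and qPCR, and COX2 staining of bone went the same way. The level of the Ptgs2 transcript in the 3 libraries was thus of direct interest.

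Transcription of such genes is controlled in part by the sequence around their start, which is shown for 3 of them. The 250 bases before the start of transcription are given for Ptgs2 and Ptges2, the members with the highest folds in the particle comparison, and for Ptgs1 as the other cyclooxygenase, together with the first 30 bases after the start of Ptgs2. All were taken from RefSeq (GRCm38.p6) and lie on the + strand, at chr1:150099781-150100030 and chr1:150100031-150100060 for Ptgs2, chr2:32395640-32395889 for Ptges2 and chr2:36230176-36230425 for Ptgs1. Capitals mark the letters of the motifs searched.
Ptgs2, before the start: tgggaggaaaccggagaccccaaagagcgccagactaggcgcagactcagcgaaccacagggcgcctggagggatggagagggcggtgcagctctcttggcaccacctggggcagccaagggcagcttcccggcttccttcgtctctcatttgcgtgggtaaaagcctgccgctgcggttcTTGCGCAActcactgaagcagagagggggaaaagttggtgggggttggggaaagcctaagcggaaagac
Ptgs2, after the start: agagtcaccactACGTCACGTGgagtccgc
Ptges2, before the start: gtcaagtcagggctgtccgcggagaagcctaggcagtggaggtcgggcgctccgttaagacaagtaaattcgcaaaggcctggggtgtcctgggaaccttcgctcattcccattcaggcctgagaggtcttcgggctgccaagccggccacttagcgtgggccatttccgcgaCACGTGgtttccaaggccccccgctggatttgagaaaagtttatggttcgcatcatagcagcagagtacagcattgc
Ptgs1, before the start: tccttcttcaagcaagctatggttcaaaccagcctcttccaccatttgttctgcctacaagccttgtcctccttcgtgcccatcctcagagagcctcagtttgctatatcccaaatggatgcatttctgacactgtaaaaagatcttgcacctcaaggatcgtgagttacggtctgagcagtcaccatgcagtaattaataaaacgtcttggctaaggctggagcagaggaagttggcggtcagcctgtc

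Windows of 250 bases before to 50 bases after a start were searched on both strands. RefSeq held such a window for 7 of the 8 listed members, and 1 had none. Each start is the one annotated by RefSeq, and where transcription began in these cells was not examined. The capitals before the start of Ptgs2 are TTGCGCAA, a sequence bound by factors of the C/EBP family, at positions -69 to -62 counted from the annotated start. This motif was found in 0.183% of the 32851 windows of all genes. The capitals after its start are ACGTCA, the core of the cAMP response element, at positions 13 to 18, and the E-box CACGTG at positions 17 to 22, which overlaps it. ACGTCA was present in 7.51% of all windows and CACGTG in 7.15%. Ptges2 held CACGTG at positions -77 to -72. No motif searched was found in the window of Ptgs1. TATAAA, present in 13.6% of all windows, was found at 1 of the starts of Pla2g4a, and the NF-kB consensus, present in 8.46%, was found at Ptges3. These matches describe the letters of a window and not binding.

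Levels are given in FPKM, fragments per kilobase of transcript scaled to the mapped fragments of the library, so they are per length and can be compared between genes. Depth was not stated and was estimated from the FPKM steps that 1 fragment makes in short genes, which gave 14050000 (CTL), 14600000 (Ti) and 10600000 (Ti+Se-Met) fragments. A fold is the ratio of FPKM values, and its interval is a 95% exact conditional binomial interval on the estimated fragments. The interval covers counting error only, takes the depth as exact and compares 2 libraries, not conditions. A gene was counted as different when log2(FPKM + 1) differed by 1 or more, that is 2-fold, over the 11137 genes that reached 1 FPKM in at least 1 library. Adding 1 makes the difference of a low gene smaller. Of the 8 listed members, 6 passed this filter, and Ptgis and Ptger4 did not. All 9 osteoblast markers were listed and 6 passed the filter, with summed levels from 5079 to 6425 FPKM over the libraries. Their members went in opposite directions in the particle comparison, where the fold of Spp1 was 2.94 and those of Runx2, Col1a2, Col1a1 and Alpl were 0.640, 0.372, 0.266 and 0.132. Alpl rested on about 50, 7 and 5 fragments in CTL, Ti and Ti+Se-Met, and it passed the filter only through CTL, where it is high. Ibsp was at or near 0 in each library. Of 7 leukocyte markers, 4 were listed, with sums from 27.8 to 32.5 FPKM, and Ptprc, Adgre1 and Itgam were not listed. Lyz2 and Cd14 made up nearly all of these sums, with Lyz2 at 26.7 FPKM in CTL, 14.8 FPKM in Ti and 12.4 FPKM in Ti+Se-Met, and Cd14 at 5.7, 16.6 and 14.8 FPKM in that order. The endothelial, adipocyte and epithelial lists each summed to less than 1 FPKM in every library, and 3 of 4 chondrocyte markers were listed, with sums from 25.5 FPKM in CTL to 40.1 FPKM in Ti+Se-Met that came mainly from Sox9, which preosteoblasts can also express. The part of Cd14, Lyz2, Sox9 and the osteoblast markers in the results was not tested.

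**Figure D1:**
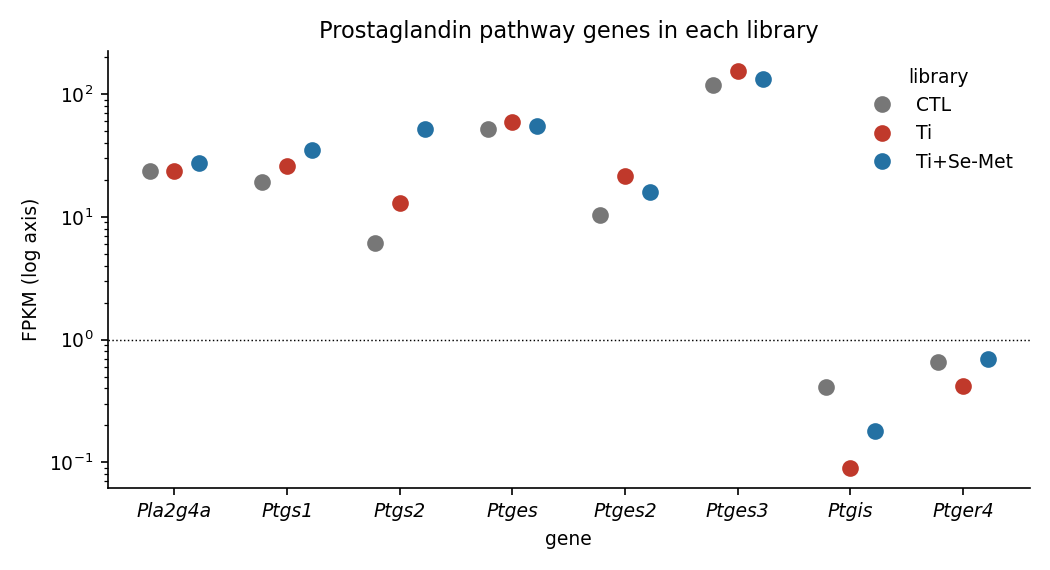
FPKM (log axis) of the 8 listed genes in the CTL, Ti and Ti+Se-Met libraries, 1 point per library, with a dotted line at 1 FPKM. Ptgs2 goes from 6.1 to 13.0 and 51.8 FPKM, while Pla2g4a and Ptges keep nearly the same height and Ptgis and Ptger4 lie below the line. Ptges3 goes from 119.6 to 155.4 and 134.0 FPKM.

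Ptgs2 was the gene of the pathway that differed most between the libraries. It stood at 6.1 FPKM in CTL, 13.0 FPKM in Ti and 51.8 FPKM in Ti+Se-Met, from about 369, 817 and 2364 fragments. The lowest level was thus in untreated cells, the middle level in cells with particles alone, and the highest in cells that received selenomethionine as well. For selenomethionine, the COX2 result that the paper gives by qPCR went the other way, and the reason for the difference was not tested. In the particle comparison the fold of Ptgs2 was 2.13 (interval 1.88 to 2.42). It was 3.99 (interval 3.68 to 4.32) in the selenomethionine comparison and 8.50 (interval 7.61 to 9.50) in the combined comparison. The 3 comparisons share libraries and are therefore not independent of each other. Among the 11137 genes, ranked from the highest difference in log2(FPKM + 1), Ptgs2 was at rank 2 in the selenomethionine comparison, at rank 8 in the combined comparison and at rank 435 in the particle comparison.

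Ptgs1, the constitutive cyclooxygenase, was at 19.1 FPKM in CTL, 26.1 FPKM in Ti and 35.3 FPKM in Ti+Se-Met. Its order over the libraries was the same as that of Ptgs2, but its steps were smaller. The fold of Ptgs1 was 1.36 (interval 1.24 to 1.5) in the particle comparison and 1.36 (interval 1.24 to 1.48) in the selenomethionine comparison. In the combined comparison it was 1.85 (interval 1.68 to 2.03), which stayed below 2-fold on the log2(FPKM + 1) scale, with a difference of 0.85.

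The balance between both cyclooxygenases differed between the libraries. Ptgs1 and Ptgs2 together summed to 25.2 FPKM in CTL, 39.1 FPKM in Ti and 87.1 FPKM in Ti+Se-Met, a fold of 1.55 in the particle comparison and of 2.23 in the selenomethionine comparison. The share of Ptgs2 in this sum was 24.2% in CTL and 33.3% in Ti, and it reached 59.5% in Ti+Se-Met. Ptgs1 was the more abundant cyclooxygenase transcript in CTL and Ti, and Ptgs2 was the more abundant in Ti+Se-Met, where its level was 1.47 times that of Ptgs1, against 0.319 times in CTL and 0.499 times in Ti. These shares are taken within a library, so scaling between the libraries leaves them as they are.

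**Figure D2:**
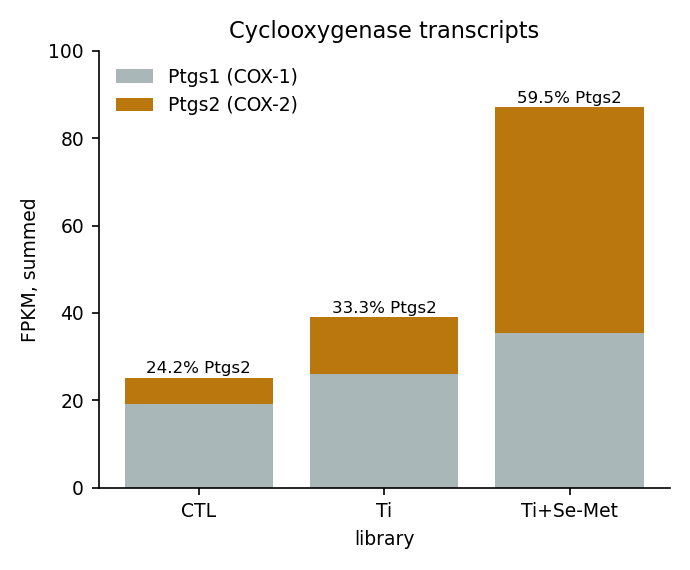
Summed FPKM of Ptgs1 and Ptgs2 in the CTL, Ti and Ti+Se-Met libraries, 1 bar per library with no replicate error, and the share of Ptgs2 above each bar. The sum goes from 25.2 to 39.1 and 87.1 FPKM, and the share of Ptgs2 from 24.2% to 33.3% and 59.5%.

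Pla2g4a encodes the cytosolic phospholipase that frees arachidonic acid from membranes. It was at 23.5 FPKM in CTL, 23.6 FPKM in Ti and 27.4 FPKM in Ti+Se-Met. The fold of Pla2g4a in the particle comparison was 1.01 (interval 0.916 to 1.10), so no difference was detectable at this depth, and its direction turned with each of the 3 other scalings of the libraries. Its fold was 1.16 (interval 1.05 to 1.27) in the selenomethionine comparison. For each FPKM of Pla2g4a there were 1.07 FPKM of cyclooxygenase transcripts in CTL, against 1.65 FPKM in Ti and 3.19 FPKM in Ti+Se-Met.

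The prostaglandin E synthases did not share the order of the cyclooxygenases over the libraries. As deposited, their 3 genes were highest in Ti, lower in Ti+Se-Met and lowest in CTL, but under TPM scaling Ptges and Ptges3 were lower in Ti+Se-Met than in CTL. Ptges encodes the microsomal enzyme that works downstream of COX-2 in many induced cells, and it was at 51.7 FPKM in CTL, 58.9 FPKM in Ti and 55.0 FPKM in Ti+Se-Met. The folds of Ptges were 1.14 (interval 1.08 to 1.2) in the particle comparison and 0.934 (interval 0.882 to 0.988) in the selenomethionine comparison. TPM scaling, which gives all libraries the same sum, also put Ptges lower in Ti than in CTL. The ratio of Ptgs2 to Ptges was 0.118 in CTL and 0.221 in Ti, and it was 0.942 in Ti+Se-Met.

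Ptges2, which encodes another membrane-associated enzyme of this kind, was the synthase that differed most. It was at 10.4 FPKM in CTL, 21.5 FPKM in Ti and 15.8 FPKM in Ti+Se-Met. The Ti library held the highest level, and the Ti+Se-Met library lay between both others. The fold of Ptges2 was 2.07 (interval 1.90 to 2.27) in the particle comparison and 0.734 (interval 0.673 to 0.800) in the selenomethionine comparison, and 1.52 (interval 1.38 to 1.69) in the combined comparison. In the Ti+Se-Met library, Ptgs2 and Ptges2 thus differed from Ti in opposite directions, although their folds in the particle comparison were 2.13 and 2.07.

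Ptges3 encodes p23, a co-chaperone of HSP90 that also has prostaglandin E synthase activity, and it was the most abundant member in each library. Its processed copy Ptges3-ps is listed apart, and how reads shared by both were counted is not stated. Its levels were 119.6 FPKM in CTL, 155.4 FPKM in Ti and 134.0 FPKM in Ti+Se-Met. The folds of Ptges3 were 1.30 (interval 1.24 to 1.36) in the particle comparison and 0.862 (interval 0.821 to 0.905) in the selenomethionine comparison. Together the 3 synthases summed to 181.6 FPKM in CTL, 235.8 FPKM in Ti and 204.8 FPKM in Ti+Se-Met, and Ptges3 held between 65.4% and 65.9% of the sum in each library. Ptges2 held 5.71% of it in CTL, with 9.13% in Ti and 7.72% in Ti+Se-Met.

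**Figure D3:**
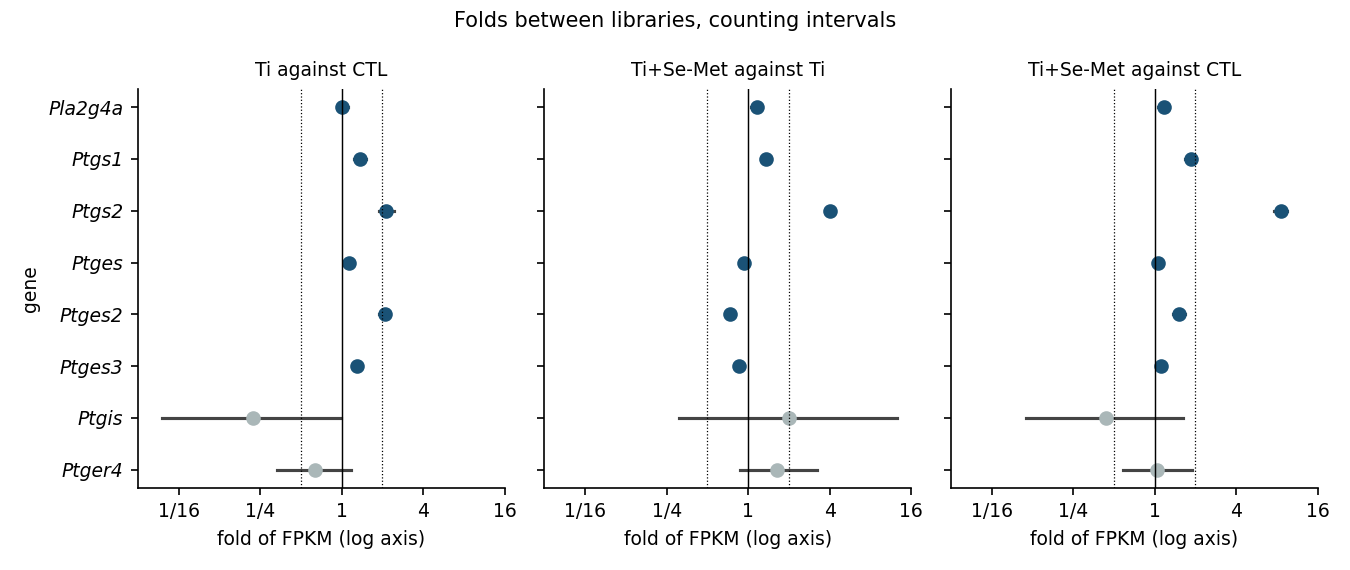
Fold of FPKM (log axis) of each listed gene between 2 libraries, with 95% exact conditional binomial intervals that cover counting error only, a solid line at 1 and dotted lines at 2-fold up and down. Grey points are genes below 1 FPKM in every library. Ptgs2 stands apart at 3.99 in Ti+Se-Met against Ti and at 8.50 in Ti+Se-Met against CTL, and in Ti against CTL it lies beside Ptges2 at 2.13 and 2.07.

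The prostacyclin synthase and the receptor were at the lower end of the table. Ptgis, which makes prostacyclin from prostaglandin H2, was at 0.41 FPKM in CTL, 0.09 FPKM in Ti and 0.18 FPKM in Ti+Se-Met, from about 11, 3 and 4 fragments. Its fold was 0.220 (interval 0.0470 to 0.994) in the particle comparison, and the interval in the selenomethionine comparison ran from 0.311 to 12.5. Ptger4, the EP4 receptor through which prostaglandin E2 raises cAMP, was at 0.66 FPKM in CTL, 0.42 FPKM in Ti and 0.69 FPKM in Ti+Se-Met, from about 29, 19 and 23 fragments. Each of the 3 intervals of the fold of Ptger4 held 1, so no difference was detectable at this depth, and the interval in the selenomethionine comparison was 0.869 to 3.24.

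By level, the members stood in the order Ptges3, Ptges, Pla2g4a, Ptgs1, Ptges2, Ptgs2, Ptger4 and Ptgis in CTL. In Ti the order was the same except that Ptgs1 stood above Pla2g4a. In Ti+Se-Met the order was Ptges3, Ptges, Ptgs2, Ptgs1, Pla2g4a, Ptges2, Ptger4 and Ptgis, so that Ptgs2 had moved from the sixth place to the third, next to Ptges at 51.8 against 55.0 FPKM. Without replicates, no spread was available to say which neighbours in these orders differ.

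At the 2-fold limit on the log2(FPKM + 1) scale, 0 of the 6 members that passed the filter were counted in the particle comparison, where 7.26% of all 11137 genes were, 3.63% as higher and 3.64% as lower. Ptgs2 and Ptges2 lay just under the limit there, with differences of 0.98 and 0.99. By the fold of FPKM with nothing added, both were higher by over 2-fold, where 11.8% of all genes were past it, 5.5% as higher and 6.3% as lower. Only Ptgs2, 1 of the 6 members, was counted in the selenomethionine comparison, with a difference of 1.92, where 0.224% of all genes were, 0.162% as higher and 0.0629% as lower. In the combined comparison the 1 member counted was again Ptgs2, with a difference of 2.90, where 5.96% of all genes were, 2.64% as higher and 3.32% as lower. The median difference of the 6 members was 0.40 in the particle comparison, 0.05 in the selenomethionine comparison and 0.39 in the combined comparison, beside 0.08, -0.06 and 0.01 for all genes.

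The folds against CTL depended on how the libraries were scaled. TPM scaling lowered every fold of the particle comparison by a factor of 0.852, and took the median difference of all genes from 0.08 to -0.14. Of all genes past 2-fold in the particle comparison, 404 were higher and 405 lower as deposited, against 233 and 864 under TPM scaling and 242 and 535 under upper-quartile scaling. The fold of Ptgs2 in the particle comparison was then 1.82 and that of Ptges2 was 1.77, and with upper-quartile scaling they were 1.94 and 1.89. For the selenomethionine comparison, Ptgs2 had a fold between 3.99 and 4.18 under the 4 scalings, and that of Ptges2 between 0.734 and 0.771.

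The rest of the eicosanoid pathway was examined as a list of 62 genes, of which 48 were listed and 27 passed the filter. In the particle comparison, 1 of the 27 was 2-fold higher and 2 were 2-fold lower, against 3.63% and 3.64% of all genes, with a median difference of 0.06 beside 0.08 for all genes. In the selenomethionine comparison, 0 of the 27 were counted in either direction, where 0.224% of all genes were, with a median of -0.10, and in the combined comparison 0 were higher and 1 was lower, against 2.64% and 3.32% of all genes, with a median of -0.04. These counts are near the shares over all genes.

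Among the phospholipases and the genes that handle arachidonate, 12 of 17 listed genes passed the filter. Pla2g12a, a secreted phospholipase, was at 8.21 FPKM in CTL, 20.3 FPKM in Ti and 16.5 FPKM in Ti+Se-Met, a fold of 2.47 (interval 2.05 to 2.97) in the particle comparison. Pla2r1, the receptor that binds secreted phospholipases, was lower in both treated libraries, at 13.8 FPKM in CTL, 5.14 FPKM in Ti and 7.28 FPKM in Ti+Se-Met, a fold of 0.371 (interval 0.335 to 0.411) in the particle comparison. Anxa1, whose product restrains phospholipase activity, was the most abundant gene of this group at 773.8, 728.3 and 912.9 FPKM. Plaat3, another phospholipase, was at 32.6, 42.4 and 43.9 FPKM, and the lysosomal Pla2g15 was at 12.1, 15.2 and 12.9 FPKM.

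Acsl3 and Acsl4 attach free fatty acids to coenzyme A, and their order over the libraries differed. Acsl3 was at 41.8 FPKM in CTL, 23.6 FPKM in Ti and 39.2 FPKM in Ti+Se-Met, so that its level in Ti+Se-Met was near that of CTL, with a fold of 1.66 (interval 1.52 to 1.81) over Ti. Acsl4, which prefers arachidonate, was at 13.5, 20.4 and 19.1 FPKM. Lpcat3, which puts arachidonate into membrane lipids, was at 27.8, 23.9 and 22.1 FPKM.

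The group of other prostanoid synthases held 4 genes above the filter out of 7 listed, and 0 of them were past 2-fold in any comparison. Over all genes the shares were 7.26%, 0.224% and 5.96% in the particle, selenomethionine and combined comparisons, so 0 of 4 is near them. Akr1b3, an aldose reductase that can make prostaglandin F, was at 53.7 FPKM in CTL, 87.2 FPKM in Ti and 79.2 FPKM in Ti+Se-Met. Its relative Akr1b8 was at 41.8, 51.6 and 52.9 FPKM. Cbr2, a carbonyl reductase, was at 302.4, 172.4 and 216.7 FPKM, with a fold of 0.570 (interval 0.542 to 0.600) in the particle comparison. Ptgds, which encodes a prostaglandin D synthase, was not listed.

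Of the other prostanoid receptors, 9 of 10 were listed and 4 passed the filter. In the particle, selenomethionine and combined comparisons 0 of these 4 were past 2-fold, near the 7.26%, 0.224% and 5.96% of all genes. Ptger1, the EP1 receptor for prostaglandin E2, was at 11.0 FPKM in CTL, 10.1 FPKM in Ti and 6.91 FPKM in Ti+Se-Met. Its level in Ti+Se-Met was the lowest, with a fold of 0.682 (interval 0.597 to 0.779) against Ti. Ptgfr, the receptor for prostaglandin F, was at 10.0, 6.58 and 5.09 FPKM in the same order, with a fold of 0.509 (interval 0.448 to 0.576) in the combined comparison. Ptgfrn, a protein that binds this receptor, was at 14.5, 17.2 and 20.5 FPKM, and the nuclear receptor Ppard was at 13.6, 17.6 and 18.1 FPKM. Ptger1 was thus at a higher level than the member Ptger4 in each of the 3 libraries.

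Of the 5 genes of transport and breakdown, 4 passed the filter. In the particle, selenomethionine and combined comparisons 0 of these 4 were past 2-fold, near the 7.26%, 0.224% and 5.96% of all genes. Ptgr1, a reductase that inactivates prostaglandins and leukotrienes, was at 36.5 FPKM in CTL, 38.0 FPKM in Ti and 34.4 FPKM in Ti+Se-Met. Zadh2, a reductase for keto-prostaglandins, was at 11.1, 11.2 and 10.7 FPKM. In the lipoxygenase branch, 3 of 10 listed genes passed the filter. Alox5ap, which presents arachidonate to the enzyme that starts leukotriene synthesis, was the lowest of the 27 list genes relative to CTL, at 20.3 FPKM in CTL, 4.55 FPKM in Ti and 5.38 FPKM in Ti+Se-Met. Its fold was 0.224 (interval 0.171 to 0.289) in the particle comparison, and in the selenomethionine comparison its interval, 0.835 to 1.69, did not exclude equal levels. Lta4h, an enzyme of leukotriene B4 synthesis, was at 67.5, 89.6 and 82.1 FPKM.

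**Figure D4:**
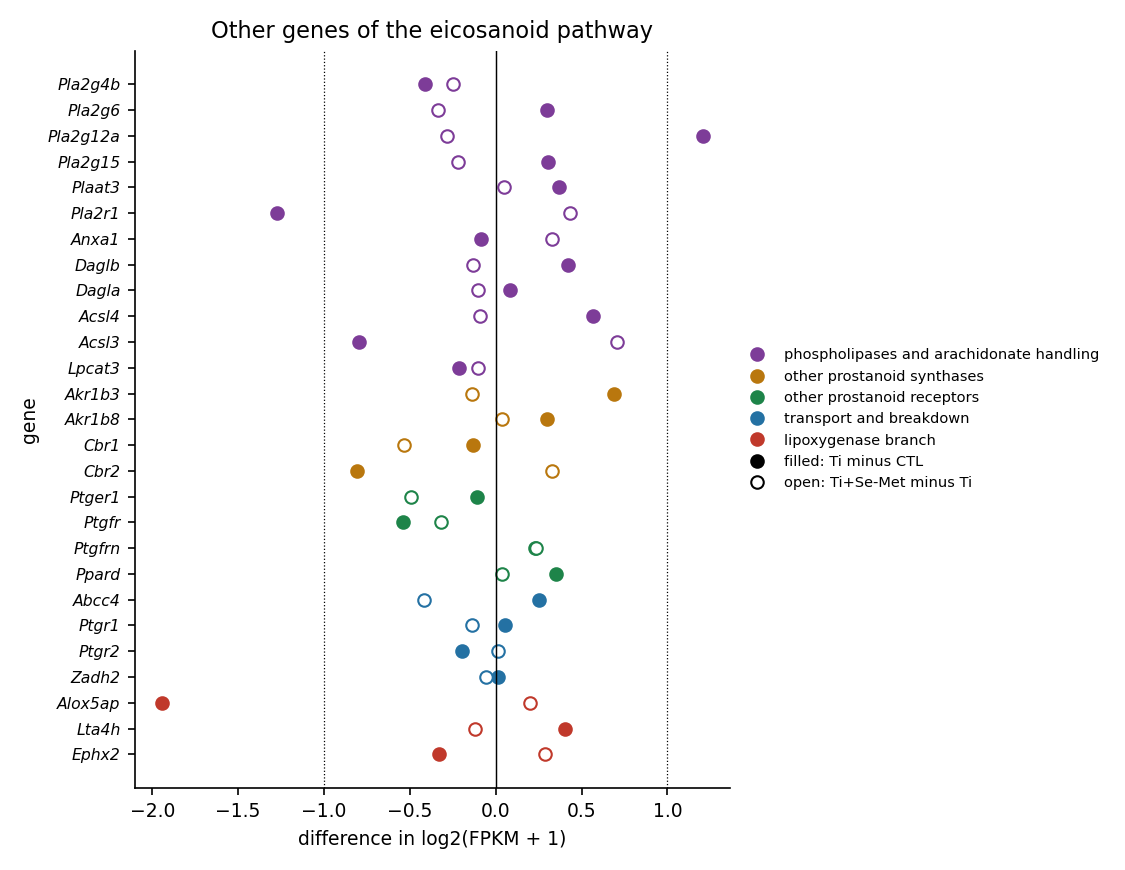
Difference in log2(FPKM + 1) of the 27 list genes that passed the filter, coloured by role, filled for Ti minus CTL and open for Ti+Se-Met minus Ti, with dotted lines at 2-fold. Pla2g12a lies past the line on the higher side and Pla2r1 and Alox5ap on the lower side for Ti minus CTL, and no open point lies past a line.

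Factors known to act on the Ptgs2 gene or its RNA were examined as a list of 20 genes, all of which passed the filter. In the particle comparison, 4 were 2-fold higher and 1 was 2-fold lower, against 3.63% and 3.64% of all genes, with a median difference of 0.35 beside 0.08 for all genes. For the combined comparison the numbers were 5 higher and 1 lower, against 2.64% and 3.32% of all genes, with a median of 0.45. For the selenomethionine comparison the number was 0, near the 0.224% of all genes, and the median was 0.01. Cebpb, which encodes a factor of the C/EBP family, was at 39.0 FPKM in CTL, 143.7 FPKM in Ti and 120.6 FPKM in Ti+Se-Met, with a fold of 3.68 (interval 3.4 to 4.0) in the particle comparison and of 0.839 (interval 0.790 to 0.891) in the selenomethionine comparison. Its relative Cebpd was at 15.3, 37.6 and 30.9 FPKM. Both were higher in each treated library than in CTL, and both were lower in Ti+Se-Met than in Ti. A link between these factors and the level of Ptgs2 was not tested.

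Fos, an AP-1 subunit, was at 0.43, 3.58 and 3.07 FPKM, and its partner Jun at 32.9, 62.2 and 62.5 FPKM. Fos was counted as higher in the particle and combined comparisons and rested on about 12, 102 and 64 fragments. It passed the filter only through Ti and Ti+Se-Met, where it is high. The NF-kB subunit gene Rela was at 30.4, 59.0 and 52.3 FPKM and Nfkb1 at 29.4, 29.6 and 29.8 FPKM. Creb1, which encodes a factor of the cAMP response element, was at 11.8, 6.93 and 7.68 FPKM. Nfatc1 was at 7.81, 13.5 and 16.7 FPKM, and was past 2-fold in the combined comparison. The E-box factors Usf1 and Usf2 were at 25.1, 31.0 and 25.7 FPKM and at 25.3, 30.1 and 33.2 FPKM.

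Among regulators of RNA turnover, Tia1, whose product holds back translation of COX-2, was at 17.6 FPKM in CTL, 8.17 FPKM in Ti and 6.3 FPKM in Ti+Se-Met, with a fold of 0.464 (interval 0.408 to 0.528) in the particle comparison. Zfp36, which encodes the decay factor tristetraprolin, was at 8.38, 10.2 and 15.7 FPKM. Its relatives Zfp36l1 and Zfp36l2 were at 49.4, 30.5 and 46.2 FPKM and at 78.6, 148.6 and 178.5 FPKM. Elavl1, which encodes the stabilising factor HuR, was at 14.9, 19.9 and 21.7 FPKM, and Khsrp, another decay factor, was at 43.0, 53.4 and 55.0 FPKM. Dusp1, a phosphatase of MAP kinases, was at 9.51, 21.8 and 20.1 FPKM.

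Genes that prostaglandin E2 or cAMP can raise in osteoblasts were taken as a list of 16, of which 14 were listed and 13 passed the filter. This list shares Crem and Fos with the list above. Fos, counted as higher here too, passed the filter only through Ti and Ti+Se-Met, where it is high. In the particle comparison, 4 were 2-fold higher and 1 was 2-fold lower, against 3.63% and 3.64% of all genes, with a median difference of 0.67. In the selenomethionine comparison 0 of the 13 were counted, near the 0.224% of all genes, and 9 of the 13 lay below 0, as did 6804 of all 11137 genes, with a median of -0.16 beside -0.06 for all genes. For the combined comparison, 5 were higher and 1 was lower, against 2.64% and 3.32% of all genes, with a median of 0.71. Nr4a1, an early response gene, was at 3.11 FPKM in CTL, 13.2 FPKM in Ti and 12.9 FPKM in Ti+Se-Met. Its relative Nr4a2 was at 1.47, 4.2 and 2.35 FPKM, with a fold of 0.560 (interval 0.427 to 0.723) in the selenomethionine comparison. The growth factor genes Vegfa and Igf1 differed from CTL in opposite directions, at 31.2, 94.4 and 79.1 FPKM and at 58.2, 18.8 and 16.7 FPKM. Areg and Has2, counted as higher in the combined comparison, were at 0.07, 0.64 and 1.15 FPKM and at 2.56, 4.65 and 6.72 FPKM. Areg rested on about 1, 10 and 13 fragments and passed the filter only through Ti+Se-Met, where it is high.

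Inflammatory genes that are often raised together with Ptgs2 were taken as a list of 15 genes. Of these 15 genes, 10 were listed and 7 passed the filter, and Il6 is also on the list of prostaglandin E2 and cAMP genes. The median difference was -0.02 in the particle comparison and 0.08 in the selenomethionine comparison, beside 0.08 and -0.06 for all genes. Saa3, an acute-phase gene, was the only one past 2-fold in the particle comparison, where 3.63% of all genes were higher and 3.64% lower. It was listed at 0 in CTL, at 1.09 FPKM in Ti and at 0.51 FPKM in Ti+Se-Met. Saa3 rested on about 0, 6 and 2 fragments, and it passed the filter only through Ti, where it is high, so that its being counted follows from the filter. The chemokine genes Ccl2 and Ccl7 were at 22.1, 37.5 and 34.7 FPKM and at 20.3, 28.9 and 23.9 FPKM. The NF-kB inhibitor Nfkbia was at 21.8, 19.3 and 20.5 FPKM, and the adhesion gene Vcam1 at 169.1, 145.6 and 163.5 FPKM. Of the 7 genes, 0 were counted in the selenomethionine comparison or in the combined comparison, where 0.224% and 5.96% of all genes were. The median in the latter was 0.23, beside 0.01 for all genes.

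The genes most like Ptgs2 over the 3 libraries were found among the 8729 genes with a mean of at least 5 FPKM, by the Euclidean distance between log2(FPKM + 1) profiles centred on their own mean. The nearest was Dmp1, a matrix protein gene of late osteoblasts and osteocytes, at a distance of 0.50, with 0.45 FPKM in CTL, 3.64 FPKM in Ti and 13.9 FPKM in Ti+Se-Met. Dmp1 reached a mean of 5 FPKM only through Ti+Se-Met, where it is high, and its level in CTL rested on about 17 fragments. The next were Ube2c, which encodes a ubiquitin-conjugating enzyme of mitosis, at a distance of 0.99, and Anxa8, an annexin gene, at a distance of 1.00. Trim47 and Dusp5, the latter a phosphatase of ERK, followed at distances of 1.02 and 1.04. The first place of Dmp1 holds on this scale, where the added 1 makes its differences from CTL smaller. By FPKM with nothing added, its folds were 8.09 in the particle comparison and 30.8 in the combined comparison, against 2.13 and 8.50 for Ptgs2. The ranking was not repeated with another pseudocount. With 3 libraries, such a likeness describes the order and size of 3 values and no more.

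**Figure D5:**
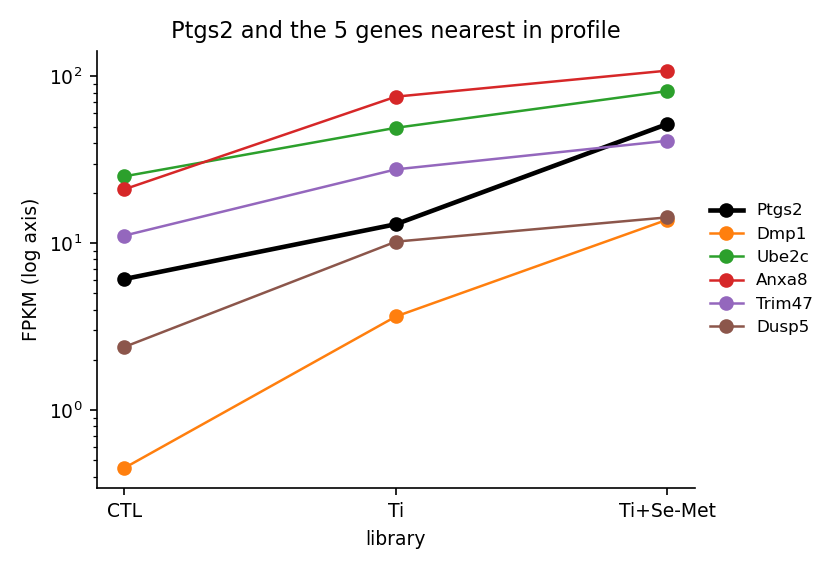
FPKM (log axis) of Ptgs2 (black) and of the 5 genes with the nearest profile in the CTL, Ti and Ti+Se-Met libraries, 1 point per library. All 6 genes go up from CTL to Ti and to Ti+Se-Met, and only Ptgs2 and Dmp1 have a step between Ti and Ti+Se-Met of over 3-fold, at 3.99 and 3.8.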

How the data were processed

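Total RNA of MC3T3-E1 cells was sequenced in 3 libraries. By their methods, the authors filtered reads for adapters and quality, mapped them to the mouse genome by HISAT2 and counted genes with HTSeq. The submitters' processing notes also name SAMtools, StringTie and the build mm9. The deposited values are FPKM per gene, rounded to 2 decimals, with no statement of how libraries were scaled to each other. The table holds no gene at 0 in all 3 libraries, and a gene that is not listed was not analysed here. Strand is not stated.

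Differences in log2(FPKM + 1) were computed on the whole table in Python 3.11.15 (pandas 2.3.3, numpy 2.4.6, scipy 1.17.1) and drawn with matplotlib 3.10.9. With 1 library per condition no test was run. Depth was estimated from 967 genes with 1 transcript of 300 to 1500 bases, less 150 bases, with GENCODE M21 lengths. Of 139 to 190 low values, 48.9% to 58.9% lay on a step, against 10.2% to 13.9% by chance, so depths and fragments are approximate.

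The members and lists were chosen with earlier results of these data known. All members are named, with the list genes that are past 2-fold or at 10 FPKM or more in any library, and the 5 genes nearest to Ptgs2. Alternatives changed the pseudocount (0.1 or 5), the filter (none, or a mean of 5 FPKM), the limit (1.5-fold or 4-fold) and the scaling (upper-quartile, median-of-ratios or TPM). Leaving out the pseudocount was added after seeing the data. Ptgds and Ptges3-ps were named outside this rule.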

Additional observations from a re-analysis of the deposited data

How the results depend on the processing

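No paired analysis was possible because there was 1 library per condition, which also means that none could be left out. There were 144 differences of single members under the alternatives for pseudocount and scaling. Of these, 118 lay within the counting interval of the fold of FPKM as deposited, on the log2 scale. That interval has nothing added to FPKM, and the main difference of Ptgs2 in the combined comparison itself lay outside it. In 8 cases the sign changed, none of which was past 2-fold. The sign changes were those of Pla2g4a under 3 scalings, of Ptges under TPM in both comparisons with CTL, of Ptges3 under TPM in the combined comparison, and of Ptger4 under TPM and upper-quartile scaling in the combined comparison.

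The number of members past 2-fold in the particle comparison, 0, became 2 with a pseudocount of 0.1, with no pseudocount and at 1.5-fold, and these were Ptgs2 and Ptges2 each time. For the selenomethionine comparison, 1 became 0 at 4-fold, since the difference of Ptgs2 was 1.92. In the combined comparison, 1 became 2 at 1.5-fold, with Ptgs1 added. For the 27 list genes, 3 in the particle comparison became 1 with a pseudocount of 5, 6 at 1.5-fold, 0 at 4-fold and 5 with TPM. In the selenomethionine comparison, 0 became 1 with a pseudocount of 0.1, with no pseudocount and at 1.5-fold. In the combined comparison, 1 became 3 with a pseudocount of 0.1, 4 with no pseudocount, 7 at 1.5-fold, 0 at 4-fold and 5 with TPM.

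Over the whole table, 809 genes in the particle comparison became 1251 with a pseudocount of 0.1, 1311 with none, 333 with 5, 2989 when the limit was 1.5-fold and 57 when it was 4-fold. In the selenomethionine comparison, 25 became 90, 109, 4, 238 and 2 under these settings, and 12 for genes with a mean of at least 5 FPKM. In the combined comparison, 664 became 1110, 1160, 243, 2469 and 49, and 1043 with TPM, which gave 224 higher and 819 lower in place of 294 and 370. Limits, pseudocounts and filters act on these numbers by construction. TPM scaling does so too, since it multiplied every fold of the particle comparison by 0.852 and of the combined comparison by 0.871. Why the summed FPKM differed between the libraries was not tested. Depth limits Ptgis and Ptger4 most, with at most 29 estimated fragments in a library.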

Other observations

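The deposited table assigns 48 genes to the KEGG term arachidonic acid metabolism, of which 24 passed the filter. Of the 48 genes, 21 are neither members nor on the lists above, and 10 of these passed the filter. In the particle comparison, 3 of the 24 were 2-fold higher and 1 was lower, against 3.63% and 3.64% of all genes. For the selenomethionine comparison 1 was higher, which was Ptgs2, against 0.162% of all genes. In the combined comparison 2 were higher and 1 was lower, against 2.64% and 3.32%. Cbr3, a carbonyl reductase gene, was at 26.8 FPKM in CTL, 60.1 FPKM in Ti and 55.9 FPKM in Ti+Se-Met. Ggt1 and Ggt5, whose enzymes cleave leukotriene C4 and glutathione, differed in opposite directions, at 0.28, 2.56 and 1.44 FPKM and at 1.55, 0.07 and 0.56 FPKM. Plb1, a phospholipase B gene, was at 2.01, 0.55 and 0.21 FPKM. Ggt5 and Plb1 passed the filter only through CTL, where they are high, and Ggt1 only through Ti and Ti+Se-Met, where it is high. In CTL, Ti and Ti+Se-Met, Ggt5 rested on about 93, 4 and 25 fragments. Plb1 rested on about 112, 32 and 9, and Ggt1 on about 8, 75 and 31. These genes were named after their values were seen.

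The GO term prostaglandin biosynthetic process holds 22 genes of the table, of which 15 passed the filter. In the selenomethionine comparison, Ptgs2 was the only one of the 15 past 2-fold, where 0.224% of all genes were. In the particle comparison the only one was Mif, a cytokine gene, where 7.26% of all genes were past 2-fold, so this count is near that share. Mif was at 508.8 FPKM in CTL, 1069 FPKM in Ti and 937.9 FPKM in Ti+Se-Met. In the combined comparison Ptgs2 was higher and Cd74 was lower, against 2.64% and 3.32% of all genes. Cd74, which encodes the receptor of Mif, was at 14.8, 8.7 and 5.69 FPKM. Pla2g7, which breaks down platelet-activating factor and is on none of the lists, had the order of Ptgs2 over the libraries, at 10.4, 19.6 and 32 FPKM, with a fold of 1.63 (interval 1.45 to 1.83) in the selenomethionine comparison. It was also chosen after its values were seen.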
